A study of Mus musculus with 27 samples.

Results

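The C3 knockout retina was compared with the wildtype retina in 14 of the 27 libraries of a study that crosses loss of C3 with heterozygous loss of Gne. The 14 were chosen by their titles: 7 from C3-/- mice and 7 from wildtype mice, all with both copies of Gne and all 9 months old. The other 13 libraries, 7 from Gne+/- and 6 from Gne+/- C3-/- mice of the same age, carry the same C3 contrast on a Gne-heterozygous background and share no library with the first. Each library comes from its own mouse, per the labels, which give no breeding history, littermate status, strain or sex, nor the part of C3 that the allele removes. RNA came from retinal whole-mounts, and 100 ng per library went into a 3′ mRNA kit that reads near the end of each transcript. A count therefore does not scale with transcript length, and levels of different genes are not ranked against each other here. In a bulk sample, fewer cells of a type and less RNA per cell cannot be told apart.

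Libraries were sequenced in 2 runs, and levels below are given by run unless both runs are named. Log2 changes over both runs are adjusted for run. Run 1 held 5 wildtype and 4 C3-/- libraries, with 17.7 to 21.3 M and 13.7 to 18.5 M counts, and run 2 held 2 and 3, with 21.04 to 22.6 M and 14.9 to 34.2 M. Values are CPM, counts scaled to a common library total with TMM factors, and listed values follow the mouse numbers: wildtype 1, 2, 4, 5 and 6 and C3-/- 1, 2, 5 and 6 in run 1, wildtype 7 and 8 and C3-/- 7, 8 and 9 in run 2. Between the runs, 10354 of 17409 tested genes (59.5%) passed the edgeR threshold, so run is a term of the model. Y-linked genes (mean of 4, above 10 CPM) were detected in no wildtype library of run 1 but in all 4 C3-/- ones, and conversely in both wildtype libraries of run 2 but in no C3-/- one. Within a run they thus separate these 2 groups, in opposite directions in the 2 runs, and their part in the results below was tested only as a covariate (closing section). On the Gne-heterozygous background they do not separate the groups. There they were detected in Gne+/- mice 1 and 4 and Gne+/- C3-/- mice 3 and 4 of run 1, and in all libraries of run 2.

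C3 is the protein on which the classical, lectin and alternative complement pathways converge. Its cleavage releases C3a, a ligand of the receptor C3ar1, and leaves C3b on surfaces, where it builds the C5 convertase and, once trimmed, is read by phagocyte receptors. In the retina complement is known for tagging synapses and debris that microglia then take up, and for its regulation at the pigment epithelium.

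C3 transcript was nearly absent from the C3-/- libraries. C3 (ENSMUSG00000024164, chromosome 17, 57203970 to 57228136, minus strand, GRCm38) had 1306 to 3810 raw counts per library in wildtype mice, and 12, 0, 16, 17, 8, 16 and 61 counts in C3-/- mice 1, 2, 5, 6, 7, 8 and 9. On the CPM scale these were 100.5 to 216 in the wildtype and 0 to 1.28 in the C3-/- libraries of run 1, and 53.9 and 91.4 against 0.492, 0.441 and 3.6 in run 2. The groups did not overlap in either run, and the mean in C3-/- retinas was 0.475% of the wildtype mean in run 1 and 2.08% in run 2. The log2 change of C3 was -6.72, with a SE of 0.618 and an adjusted p = 6.08e-07. This and all adjusted p-values below come from edgeR's quasi-likelihood test with Benjamini-Hochberg adjustment over all 17409 genes, over both runs, with 7 libraries in each group. The exact 2-sided permutation test of the run-centred difference, with labels permuted within run, gave p = 0.000794, the smallest value its 1260 permutations allow. The 61 counts of C3-/- mouse 9 set that library apart from the other 6. In run 2 alone, with 2 and 3 libraries, the log2 change was -5.68 and the adjusted p = 0.556.

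With C3, 29 of 17409 genes passed the threshold (0.167% of those tested). Of these 13 rose (0.0747%) and 16 fell (0.0919%). The smallest rise was 0.76 (Pgap2) and the smallest fall 0.63 (Mylk) on the log2 scale. Without adjustment, 781 genes (4.49%) had p under 0.05. The 28 genes named here lie on 7 chromosomes. They include ribosomal protein genes and their processed copies (Rps15a, Rps13-ps1, Rps13-ps2, Mrpl48-ps), a GTPase of Golgi traffic (Rab6a), enzymes that modify lipids or sugars of proteins (Pgap2, Xxylt1), an ion exchanger (Slc4a8), signalling scaffolds and regulators (Akap6, Mylk, Arhgap31), a transcription factor (Sp1), a cholesterol exporter (Abca1) and a telomere protein (Pot1b). Apart from C3 itself, no complement gene is among them. Of the 29, 29 had the same sign in both runs, and in 23 the C3-/- and wildtype libraries did not overlap within either run, against 89 of all 17409 genes (0.511%). The 29 were chosen by their p-value in these same libraries, so both counts describe them and are no test.

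Loss of C3 cannot be told apart here from any other sequence difference between the 2 groups of mice, linked to C3 or not, since the labels give no strain or littermate information and the deposited counts hold no genotype calls.

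**Figure D1:**
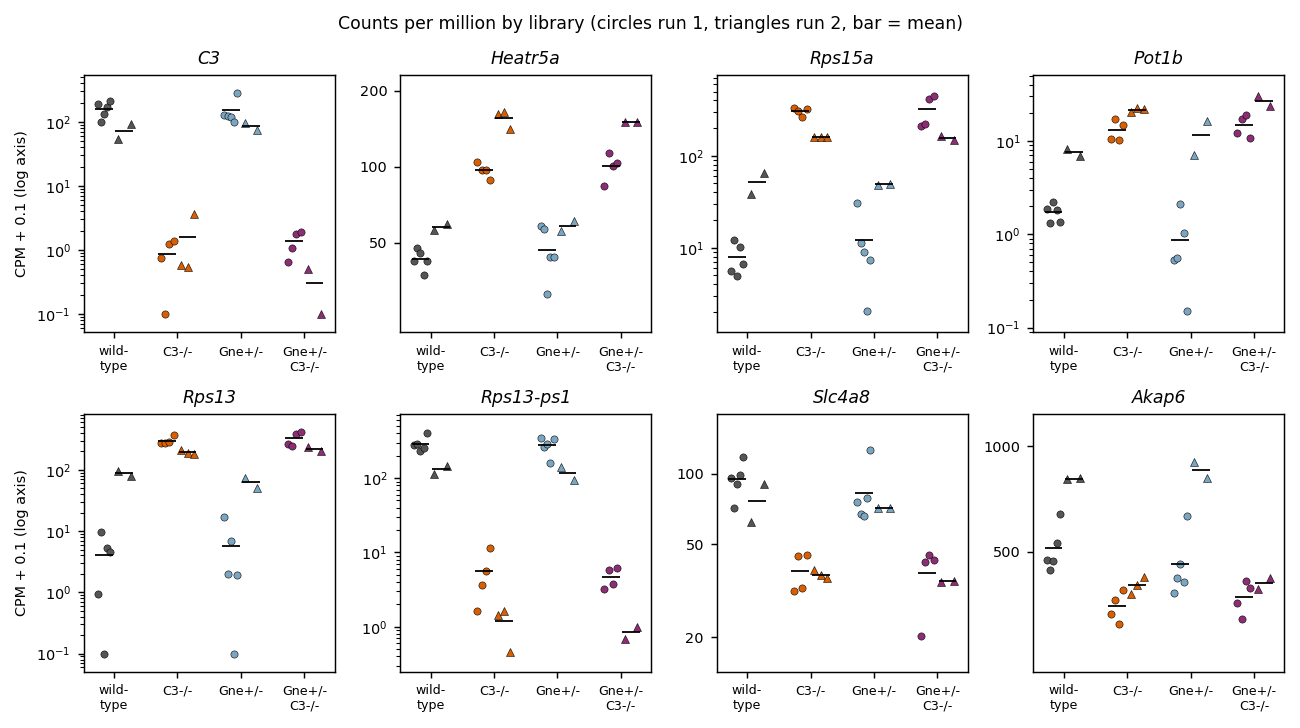
Expression of 8 genes in all 27 libraries by genotype, as CPM + 0.1 on a log axis. Circles are libraries of run 1, triangles libraries of run 2 and bars the mean of each group and run. In all 8 panels the C3-/- libraries lie on 1 side of the wildtype libraries of their run, as for Heatr5a at 88.7 to 105 against 37.4 to 47.8 CPM in run 1, and run shifts the levels within a group.

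Near-identical copies of a ribosomal protein gene changed in opposite directions. Rps13 encodes a protein of the small ribosomal subunit and has processed pseudogenes, intronless copies made from its mRNA, of which Rps13-ps1 and Rps13-ps2 were measured. Their sequences are shown because a read from one can match another: below are the last 120 coding bases of Rps13 and the matching stretch of each copy, from the GENCODE M21 transcripts (GRCm38), with capitals at bases that differ from Rps13. Rps13 lies on the minus strand at chr7:116331553-116332467 (2 exons in this stretch), Rps13-ps1 on the plus strand at chr8:87048053-87048172 and Rps13-ps2 on the minus strand at chr7:88530446-88530565.
Rps13: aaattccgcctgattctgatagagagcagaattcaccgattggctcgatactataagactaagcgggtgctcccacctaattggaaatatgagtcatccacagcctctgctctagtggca
Rps13-ps1: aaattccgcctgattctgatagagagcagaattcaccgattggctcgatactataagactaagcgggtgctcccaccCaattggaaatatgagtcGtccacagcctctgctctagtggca
Rps13-ps2: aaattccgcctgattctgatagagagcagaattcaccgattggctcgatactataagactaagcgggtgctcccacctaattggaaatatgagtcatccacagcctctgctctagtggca
Counted from the first printed base, Rps13-ps1 differs by T78C and A96G, its only 2 differences over 453 coding bases, and Rps13-ps2 is identical over all 453.

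Rps13-ps1 (ENSMUSG00000066362, chromosome 8, 87047689 to 87048226, plus strand) fell and Rps13-ps2 (ENSMUSG00000069972, chromosome 7, 88530446 to 88530898, minus strand) rose. For Rps13-ps1, the wildtype libraries measured 279, 287, 232, 256 and 401 CPM in run 1 and 115 and 147 CPM in run 2, and the C3-/- libraries 1.54, 3.52, 5.5 and 11.5 and 1.35, 1.54 and 0.354 CPM. Every C3-/- library lay below every wildtype library, and the log2 change was -6.10 (SE 0.397, adjusted p = 1.13e-09). Rps13-ps2 was at 0 to 0.121 CPM in all wildtype libraries, at 13.2, 12.3, 10.6 and 15.5 CPM in the C3-/- libraries of run 1 and at 1.17, 0.413 and 0.649 CPM in those of run 2. Its change was 7.36 (SE 0.668, adjusted p = 1.11e-08), a size that depends on how zeros are handled.

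Rps13 itself stood at 0.838, 9.56, 0, 5.12 and 4.54 CPM in the wildtype libraries of run 1 and at 272, 272, 286 and 366 CPM in the C3-/- libraries. In run 2 it stood at 94.8 and 79.9 against 208, 189 and 184 CPM. The groups did not overlap in either run, but the change of 4.42 (SE 1.03, adjusted p = 0.116) did not pass the threshold over both runs. The sum of Rps13, Rps13-ps1 and Rps13-ps2 was 295 ± 66.3 CPM in wildtype (SD, n = 5) and 317 ± 51.0 CPM in C3-/- libraries of run 1 (n = 4), and 218 ± 11.8 (n = 2) and 195 ± 13.1 CPM (n = 3) in run 2. The 3 values taken singly are therefore uncertain as levels of their own transcripts, and the counts of the family as a whole differed by less than 1 SD in run 1. In run 2 the sums ranged from 209.9 to 226.6 CPM in wildtype and from 185.2 to 210.0 CPM in C3-/- libraries.

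Mrpl48-ps, a processed copy of the mitochondrial ribosomal protein gene Mrpl48, fell. The last 120 coding bases of the Mrpl48 transcript used (minus strand, chr7:100549311-100550587, 2 exons) and the matching stretch of the copy (minus strand, chr4:88599178-88599297) are shown with the same marking.
Mrpl48: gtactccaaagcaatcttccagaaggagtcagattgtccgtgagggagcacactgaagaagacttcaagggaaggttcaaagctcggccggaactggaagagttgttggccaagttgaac
Mrpl48-ps: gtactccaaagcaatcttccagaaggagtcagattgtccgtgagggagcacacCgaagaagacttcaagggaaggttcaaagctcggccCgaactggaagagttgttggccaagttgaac
They differ by T54C and G90C here and at 9 of 339 coding bases in all.

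Mrpl48-ps (ENSMUSG00000078480, chromosome 4, 88599175 to 88599810, minus strand) stood at 3.52, 5.99, 7.08, 4.25 and 5.33 CPM in the wildtype and 0.0552, 0, 0.0715 and 0 CPM in the C3-/- libraries of run 1. In run 2 it stood at 0 and 1.19 CPM in wildtype and at 0 in all 3 C3-/- libraries, so that the groups meet at 0 there. Summed over libraries it had 491 counts in wildtype and 2 in C3-/- mice, a ratio of 231 (exact 95% interval 63.5 to 1910, counting error only), with an adjusted p = 2.09e-05. Mrpl48, on chromosome 7 within the stretch described next, measured 7.82 to 16.9 against 14.8 to 23.6 CPM in run 1 and 21.5 to 38.2 against 47.3 to 54.9 CPM in run 2. It did not pass the threshold, with a change of 0.70 (SE 0.196, adjusted p = 0.26). The sum of Mrpl48 and Mrpl48-ps in run 1 was 17.45 ± 5.28 CPM in wildtype (SD, n = 5) and 18.9 ± 4.45 CPM in C3-/- libraries (n = 4). In run 2 it was 30.45 ± 12.6 (n = 2) against 51.5 ± 3.88 CPM (n = 3). The groups overlap in this sum in run 1, so the fall of Mrpl48-ps is uncertain as a level of its own transcript.

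Of the genes named, 11 lie on chromosome 7, between 84528954 and 139978977. The ribosomal protein gene Rps15a (ENSMUSG00000008683, chromosome 7, 118104372 to 118116188, minus strand) rose. In wildtype retinas it stood at 5.48, 12, 4.87, 10.1 and 6.58 CPM in run 1 and 38.1 and 64.9 CPM in run 2, and in C3-/- retinas at 328, 308, 263 and 319.6 and 159.5, 160.1 and 159 CPM. The groups were far apart in both runs, and the log2 change was 3.96 (SE 0.665, adjusted p = 0.00519), with 5.27 in run 1 and 1.64 in run 2. Of 10 near-identical copies of its transcript end (at least 95% identity over at least 100 bases), 1 had a mean of 1 CPM or more, and with it added the sums were 11.6 ± 4.26 (n = 5) against 307 ± 29.1 CPM (n = 4) in run 1. In the Rps15a family the sum moved with the gene, whereas in the Rps13 family Rps13 and Rps13-ps1 moved in opposite directions. Copies of Rps15a match its transcript end at up to 99.5% identity. How reads that match several copies were placed was not examined, so the values of Rps15a are uncertain too.

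Trim12a, a member of the TRIM family of antiviral restriction factors, was seen almost only without C3. Trim12a (ENSMUSG00000066258, chromosome 7, 104299894 to 104315466, minus strand) had 1 count in all 7 wildtype libraries together and 589 in the 7 C3-/- libraries, a ratio of 627 (exact 95% interval 112 to 2.48e+04, counting error only; adjusted p = 7.54e-08). It stood at 7.78, 4.9, 4.79 and 11.6 CPM in C3-/- mice of run 1 and at 1.29, 2.67 and 2.65 CPM in those of run 2. Its neighbour and close copy Trim12c measured 2.61 to 12.2 against 0.772 to 5.93 CPM in run 1 and 3.21 to 5.03 against 1.77 to 3.08 CPM in run 2, and the other close copy, Trim5, was at 0 in all wildtype libraries and at 0 to 3.14 and 0.177 to 1.91 CPM in the C3-/- libraries of run 1 and run 2. The sum of all 3 was 6.81 ± 3.48 (SD, n = 5) against 12.95 ± 3.06 CPM (n = 4) in run 1 and 4.12 ± 1.29 (n = 2) against 5.43 ± 0.839 CPM (n = 3) in run 2. The groups overlap in this sum in both runs, so the single values are uncertain.

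Olfr607, an olfactory receptor gene, showed the reverse. Olfr607 (ENSMUSG00000081945, chromosome 7, 103455526 to 103464151, minus strand) had 419 counts in wildtype libraries, at 0.224, 2.3, 3.06, 7.53 and 7.15 CPM in run 1 and 0.99 and 1.14 CPM in run 2, and 0 counts in all 7 C3-/- libraries. Against a floor of 3 counts over the group it was at least 131-fold lower (adjusted p = 0.000676). Part of its transcript end resembles many other transcripts, among them abundant ones, so its counts are uncertain.

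The other coding genes that changed on chromosome 7 moved by smaller steps. Ints4 (ENSMUSG00000025133, chromosome 7, 97480956 to 97541395, plus strand), a subunit of the Integrator complex that trims small nuclear RNAs and stops transcription, rose by 1.11 (SE 0.193, adjusted p = 0.00264). Its run 1 levels were 12.6, 19.3, 15.4, 16.2 and 13.3 CPM in wildtype against 55.2, 37, 37.8 and 45.2 CPM in C3-/- libraries, and its run 2 levels were 24.5 and 31.1 against 43.1, 33.2 and 33.5 CPM. Rab6a (ENSMUSG00000030704, chromosome 7, 100607410 to 100641268, plus strand), a GTPase of Golgi traffic, rose by 0.91 (SE 0.147, adjusted p = 0.000922). The C3-/- libraries had 548, 419.9, 528 and 304 CPM in run 1, where wildtype had 196, 234, 215, 188 and 151 CPM, and 203, 212 and 159 CPM in run 2, where wildtype had 177 and 115 CPM. The groups did not overlap in run 1, but in run 2 the lowest C3-/- library lay below the highest wildtype library. Pgap2 (ENSMUSG00000030990, chromosome 7, 102210208 to 102238567, plus strand), which remodels the lipid of GPI anchors, rose by 0.76 (SE 0.159, adjusted p = 0.0235), with 17.1 to 24.1 against 30.5 to 52.5 CPM in run 1 and 38.1 to 40.8 against 49.7 to 55 CPM in run 2.

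The provisional and non-coding genes of this stretch went both ways. E230029C05Rik (ENSMUSG00000097585, chromosome 7, 89980723 to 90049069, plus strand) rose by 4.21 (SE 0.479, adjusted p = 2.93e-06). The wildtype libraries of run 1 measured 1.96, 0.605, 1.25, 1.69 and 0.738 CPM and the C3-/- libraries 13.3, 16.5, 13.1 and 24.3 CPM, and those of run 2 measured 0.124 and 0.966 and 45.5, 20.4 and 37.2 CPM. It was among the 4 named genes that stayed past the threshold under every alternative and without any single library. Gm16201 rose by 1.65 (SE 0.338, adjusted p = 0.0196), at 2.1 to 5.38 against 5.25 to 16.6 CPM in run 1 and 6.93 to 7.42 against 16.1 to 17.1 CPM in run 2, and 26.4% of its span is covered by other genes. Gm15506 fell by 1.31 (SE 0.223, adjusted p = 0.00206), at 21.9 to 38.1 against 11.2 to 14.3 CPM in run 1 and 11.9 to 12.4 against 2.7 to 6.72 CPM in run 2, and Gm2115 fell by 1.52 (SE 0.29, adjusted p = 0.00812), at 15.1 to 28 against 3.08 to 5.52 CPM in run 1 and 8.82 to 14.5 against 7.02 to 11.4 CPM in run 2. The call of Gm2115 was lost when only the 14 libraries of both groups were fitted (adjusted p = 0.0796).

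On chromosome 12, 2 named genes moved in opposite directions. Heatr5a (ENSMUSG00000035181, chromosome 12, 51875871 to 51971321, minus strand), a HEAT-repeat protein gene, rose. In wildtype retinas it stood at 42.4, 47.8, 45.4, 37.4 and 42.2 CPM in run 1 and 56 and 59.5 CPM in run 2, and in C3-/- retinas at 105, 97, 96.5 and 88.7 and 162, 164 and 141 CPM. In each run every C3-/- library exceeded every wildtype library, and the log2 change was 1.27 (SE 0.124, adjusted p = 5.42e-08). Akap6 (ENSMUSG00000061603, chromosome 12, 52699383 to 53155599, plus strand), which anchors protein kinase A at the nuclear envelope and other membranes, fell. Its run 1 levels were 475, 444, 470.5, 529 and 639 CPM in wildtype against 333, 366, 313 and 389 CPM in C3-/- libraries, and its run 2 levels were 804 and 809 against 381, 404 and 424 CPM. Its change was -0.71 (SE 0.127, adjusted p = 0.00346), again with no overlap in either run. Of 9 tested genes from Heatr5a to Akap6, these 2 included, 4 had an unadjusted p under 0.05 (44.4%, against 4.49% of all genes tested). The stretch was drawn around these 2 genes, so this count is no test.

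On chromosome 15, 4 named genes lie between 100761747 and 102436404. Slc4a8 (ENSMUSG00000023032, chromosome 15, 100761747 to 100823968, plus strand), a sodium-driven chloride and bicarbonate exchanger of neurons, fell. The C3-/- libraries had 31.3, 44.6, 32.4 and 44.8 CPM in run 1, where wildtype had 96, 71.3, 90.6, 98.3 and 118 CPM, and 38.5, 36.8 and 35.7 CPM in run 2, where wildtype had 62.2 and 90.4 CPM. Every C3-/- library lay below every wildtype library, and the change was -1.22 (SE 0.168, adjusted p = 5.47e-05). Sp1 (ENSMUSG00000001280, chromosome 15, 102406143 to 102436404, plus strand), a transcription factor that binds GC boxes, fell by 1.01 (SE 0.199, adjusted p = 0.0107). The wildtype libraries of run 1 measured 34.8, 30.9, 27.7, 24.9 and 35.4 CPM and the C3-/- libraries 16.7, 8.96, 10.4 and 14.6 CPM, and those of run 2 measured 145 and 100.5 and 76.7, 79.8 and 76.5 CPM. Its level was several times higher in run 2 than in run 1 in both groups, while the C3-/- libraries were the lower ones in each run. Myg1 (ENSMUSG00000001285, chromosome 15, 102331709 to 102338139, plus strand), an exonuclease of mitochondria and nucleus, rose by 1.02 (SE 0.215, adjusted p = 0.0239), at 10.7 to 23.9 against 28.9 to 55.4 CPM in run 1 and 6.97 to 13.5 against 17.8 to 21.4 CPM in run 2. Gm9918 rose by 0.81 (SE 0.158, adjusted p = 0.01), at 60.5 to 94 against 127 to 141 CPM in run 1 and 15.8 to 19.4 against 23.2 to 37.2 CPM in run 2.

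On chromosome 16, 3 named genes lie between 30955144 and 38713274. Xxylt1 (ENSMUSG00000047434, chromosome 16, 30955144 to 31081432, minus strand), a xylosyltransferase that extends sugars on Notch receptors, fell by 1.47 (SE 0.271, adjusted p = 0.00522). In wildtype retinas it stood at 17.4, 44.3, 29.3, 18 and 14.8 CPM in run 1 and 41.8 and 28.5 CPM in run 2, and in C3-/- retinas at 8.94, 7.5, 6.65 and 5.93 and 19.2, 20.02 and 15.1 CPM. Mylk (ENSMUSG00000022836, chromosome 16, 34745210 to 35002420, plus strand), the myosin light chain kinase of contractile cells, fell by 0.63 (SE 0.132, adjusted p = 0.0239), at 35.8 to 52.2 against 25 to 35 CPM in run 1 and 72.4 to 77.8 against 40.5 to 55.6 CPM in run 2. Arhgap31 (ENSMUSG00000022799, chromosome 16, 38598340 to 38713274, minus strand), which switches off the GTPases Rac1 and Cdc42, rose by 0.98 (SE 0.187, adjusted p = 0.00812). Its run 1 levels were 42.5, 35.6, 40.1, 46.9 and 17.1 CPM in wildtype against 64.4, 69.4, 84.3 and 65.1 CPM in C3-/- libraries, and its run 2 levels were 42.8 and 27.6 against 79, 66.7 and 60.4 CPM. In all 3 the groups did not overlap within either run. On another chromosome, Abca1 (ENSMUSG00000015243, chromosome 4, 53030787 to 53159895, minus strand), which exports cholesterol to apolipoproteins, fell by 0.86 (SE 0.185, adjusted p = 0.0331), at 31.6 to 72.5 against 25.8 to 37.3 CPM in run 1 and 47.6 to 57.2 against 24.7 to 31.5 CPM in run 2, with overlap in run 1. Its call and those of Mylk, Myg1, Pgap2, Sp1, Gm16201 and Slc25a41 were lost when some single libraries were left out, which the closing section names.

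On the chromosome of C3, 4 other named genes changed. Pot1b (ENSMUSG00000024174, chromosome 17, 55651951 to 55712628, minus strand), a mouse telomere protein that binds the single-stranded end, rose. The C3-/- libraries had 10.4, 17, 10.1 and 14.8 CPM in run 1, where wildtype had 1.79, 1.21, 2.09, 1.74 and 1.25 CPM, and 20.3, 22.4 and 22 CPM in run 2, where wildtype had 8.16 and 6.81 CPM. The change was 2.51 (SE 0.474, adjusted p = 0.00812), with no overlap in either run. Slc25a41 (ENSMUSG00000011486, chromosome 17, 57032773 to 57041654, minus strand), a mitochondrial ATP-magnesium and phosphate carrier, fell by 2.22 (SE 0.494, adjusted p = 0.0476), at 6.4 to 10.8 against 1.1 to 4.64 CPM in run 1 and 2.55 to 6.56 against 0 to 1 CPM in run 2. Gm17168 (ENSMUSG00000091390, chromosome 17, 57041775 to 57047143, plus strand), an antisense gene beside it, had 0, 1.27, 0.283, 5.74 and 0.454 CPM in the wildtype libraries of run 1, 5.53 and 11.1 CPM in those of run 2, and 0 in 6 of 7 C3-/- libraries. It fell by 6.82 (SE 1.21, adjusted p = 0.00346), a size that depends on how zeros are handled. Other genes cover 63.9% of its span and the counting was unstranded, so its values are uncertain.

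Tmem181b-ps (ENSMUSG00000096780, chromosome 17, 6438524 to 6467022, minus strand), a transcribed pseudogene, lies far from C3 on the same chromosome. The wildtype libraries of run 1 measured 47.4, 68.4, 43.5, 55.8 and 54.8 CPM and the C3-/- libraries 0.0552, 0, 0 and 0 CPM, and those of run 2 measured 25.4 and 29.1 and 0.307, 0.275 and 0.059 CPM. It fell by 9.15 (SE 1.33, adjusted p = 0.000922), a size that depends on how zeros are handled. Its close copy Tmem181a measured 1.68 to 15 against 0.225 to 5.72 CPM in run 1 and 12.2 to 15.9 against 12.5 to 13.1 CPM in run 2, and with Dynlt1a, whose transcript end is also a close match, the sum of all 3 was 60.7 ± 10.19 (SD, n = 5) against 4.86 ± 1.86 CPM (n = 4) in run 1 and 45.8 ± 1.64 (n = 2) against 14.6 ± 0.34 CPM (n = 3) in run 2. The sum was lower without C3 in both runs, with no overlap between groups.

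Of 74 tested genes within 5 Mb on either side of C3, C3 included, 4 passed the threshold (5.41%, against 0.167% of all genes tested), the others being Pot1b, Slc25a41 and Gm17168. An unadjusted p under 0.05 was found for 8 (10.8%, against 4.49% of all), and 5 (6.76%, against 0.511%) had groups that did not overlap within either run. C3, the targeted gene, is in both of these counts. The nearest tested neighbours were not past it: Gpr108, whose midpoint lies 25.5 kb away, had a log2 change of -0.15 (unadjusted p = 0.309), Trip10, 40.5 kb away, -0.59 (unadjusted p = 0.101), and Vav1, a guanine nucleotide exchange factor of blood cells 87.5 kb away, 3.08 (unadjusted p = 0.0229, adjusted p = 0.931), at 0 to 0.782 CPM in wildtype and 0 to 2.4 CPM in C3-/- libraries over both runs. Catsperd, a subunit of a sperm calcium channel, had a change of 2.83 (SE 0.834, adjusted p = 0.351) at 0 to 1.45 CPM in wildtype and 0.552 to 5.37 CPM in C3-/- libraries over both runs.

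**Figure D2:**
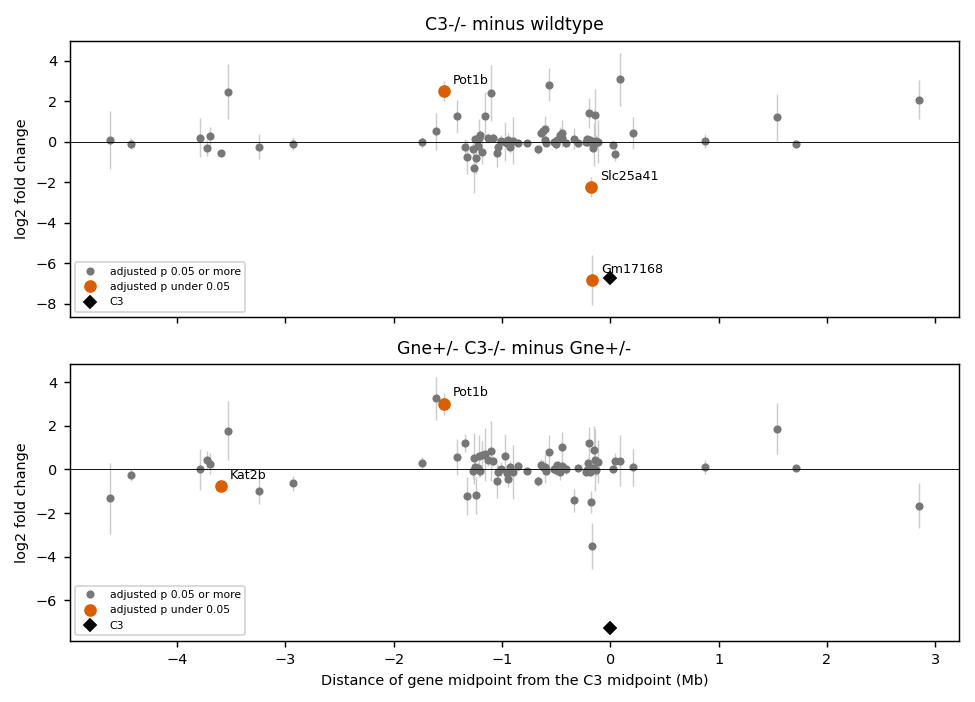
Log2 fold change (vertical axis, bars: standard error) of tested genes against the distance of the gene's midpoint from that of C3 in Mb, for C3-/- minus wildtype (upper panel) and Gne+/- C3-/- minus Gne+/- (lower panel). The diamond is C3, at -6.72 and -7.26, and orange points are other genes with an adjusted p under 0.05. In both panels Pot1b is above 0 and past the threshold.

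Most of the genes that changed lie in a few stretches of the genome. The stretches between the first and last named gene on chromosomes 7, 12, 15 and 16, together with the 5 Mb on either side of C3, hold 642 tested genes and 24 of the 29 that passed, and the other 16767 tested genes hold 5. The stretches on chromosomes 7, 12, 15 and 16 were drawn around these same genes, so this count describes where they lie and is no test. Among the 642, 12.3% had an unadjusted p under 0.05, against 4.19% elsewhere, and 4.98% had C3-/- and wildtype libraries that did not overlap within either run, against 0.34%. These shares include the 24 genes that passed, around which most of the stretches were drawn, so they are no test either. The largest stretch, on chromosome 7, spans 55.45 Mb with 436 tested genes, of which 11 passed and 55 had an unadjusted p under 0.05. Most of their neighbours did not pass: within 1 Mb, Rab6a had 32 tested neighbours, of which 0 passed and 6 had an unadjusted p under 0.05, Ints4 had 22 with 0 and 4, and Rps15a 15 with 0 and 5. Olfr607 had 14 with 1 and 5, Trim12a 9 with 1 and 3, and Pgap2 27 with 0 and 3. Shares were lower for Gm15506 (29 with 0 and 2), Gm16201 (27 with 0 and 2) and Gm2115 (12 with 0 and 1). E230029C05Rik had 16 with 0 and 2, and Rps13-ps2 7 with 0 and 0.

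The same contrast on the Gne-heterozygous background, Gne+/- C3-/- against Gne+/-, gave 33 genes past the threshold (0.19% of 17409), 16 higher and 17 lower, and 1114 genes (6.4%) at an unadjusted p under 0.05. Of the 29 genes from C3-/- against wildtype, 18 were among them (62.1% of the 29 and 54.5% of the 33). The other 11 of the 29 had the same sign there and an unadjusted p under 0.05. The 2 contrasts use different libraries but were fitted in 1 model and share its estimate of the spread. Fitted apart, on 14 and 13 libraries, they gave 21 genes (0.139% of 15140) and 20 genes (0.129% of 15518), with 9 in common, 42.9% and 45.0% of each.

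All 28 named genes had the same sign on both backgrounds. In order of the background with and without both copies of Gne, the log2 changes were 1.27 and 1.18 for Heatr5a, 3.96 and 3.93 for Rps15a, and -1.22 and -1.11 for Slc4a8. They were 2.51 and 3.02 for Pot1b, 0.91 and 0.93 for Rab6a, and -1.47 and -1.52 for Xxylt1. Rps15a stood at 30.7, 11.3, 8.96, 1.95 and 7.26 CPM in Gne+/- and 212, 222, 414 and 449 CPM in Gne+/- C3-/- libraries of run 1, and at 47.6 and 49.8 against 166 and 147 CPM in run 2. Trim12a was at 0 in all 7 Gne+/- libraries and at 2.37 to 7.21 CPM in the 6 Gne+/- C3-/- libraries, at least 212-fold higher against a floor of 3 counts over the group. Olfr607 was at 0 in all 6 Gne+/- C3-/- libraries and at 0.181 to 5.33 CPM in Gne+/- libraries, at least 75.8-fold lower.

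The difference between the 2 C3 effects was tested directly by the interaction contrast, which 0 of 17409 genes passed with edgeR, DESeq2 or limma-voom. At an unadjusted p under 0.05 it had 554 genes (3.18%), 2 of them among the 29. These were Tmem181b-ps (unadjusted p = 0.0125), with changes of -9.15 and -4.94, and Gm17168 (unadjusted p = 0.0275), with -6.82 and -3.51. For both genes the C3-/- libraries were at or near 0, so the sizes compared depend on how zeros are handled. For Tmem181b-ps, 5 of the 6 Gne+/- C3-/- libraries were at 0 to 0.0706 CPM and mouse 8 of run 2 at 16.9 CPM, against 23.4 to 80.7 CPM in Gne+/- libraries.

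Among the 15 genes past the threshold only with Gne loss, Pde6c, the catalytic subunit of the cone phosphodiesterase, rose by 0.72 (SE 0.15, adjusted p = 0.0245) there and had a change of 0.57 (SE 0.145, adjusted p = 0.143) in C3-/- against wildtype mice. With both copies of Gne, it measured 117 to 156 against 187 to 254 CPM in run 1 and 44.8 to 56.6 against 60.2 to 65.3 CPM in run 2, with no overlap in either run. Cers5, a ceramide synthase, rose by 0.89 (SE 0.161, adjusted p = 0.00402) there and had 0.66 (SE 0.156, adjusted p = 0.0743) with both copies of Gne. Arl6ip1, which shapes the endoplasmic reticulum and lies beside Rps15a, rose by 0.72 (SE 0.142, adjusted p = 0.0126) and had 0.59 (SE 0.139, adjusted p = 0.0759). Kat2b, a histone acetyltransferase on the chromosome of C3, fell by 0.75 (SE 0.167, adjusted p = 0.0464) and had -0.55 (SE 0.161, adjusted p = 0.346). A difference between the backgrounds was not shown for these 4, whose interaction p-values, unadjusted, were 0.485, 0.309, 0.502 and 0.393.

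**Figure D3:**
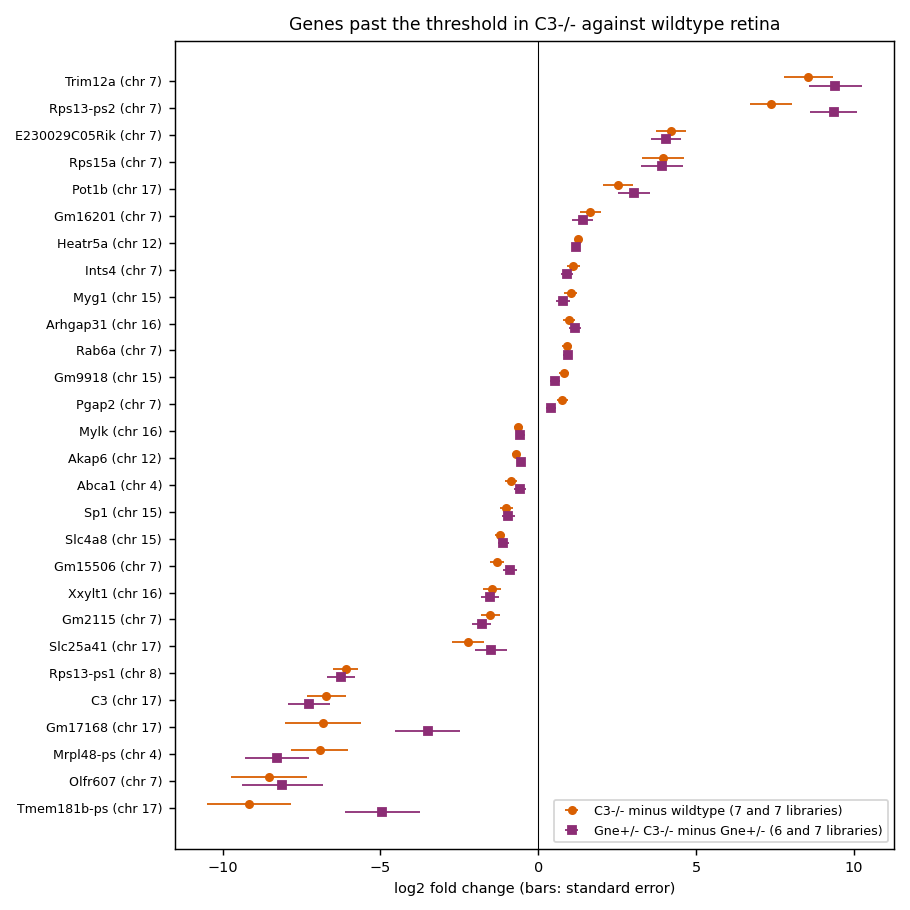
Log2 fold change with its standard error for the 28 named genes, as C3-/- minus wildtype (orange circles, 7 and 7 libraries) and Gne+/- C3-/- minus Gne+/- (purple squares, 6 and 7 libraries). All 28 pairs lie on the same side of 0. Fitted values for Trim12a, Olfr607, Mrpl48-ps, Rps13-ps2, Tmem181b-ps and Gm17168 depend on how zeros are handled, since 1 group was at or near 0.

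The size of the C3-/- effect was also compared between the runs. Its difference passed the threshold for 3 genes (0.0172% of 17409), all 3 lower in run 1 than in run 2, with 735 genes (4.22%) at an unadjusted p under 0.05. None of the 28 named genes was among the 3. Plekha7, an adherens junction protein gene on chromosome 7, measured 33 to 59.8 against 17.4 to 24.6 CPM in run 1 and 47.3 to 82.8 against 90.8 to 118 CPM in run 2, so that the C3-/- libraries were the lower ones in run 1 and the higher ones in run 2. Its difference between runs was -1.79 (SE 0.328, adjusted p = 0.0445). On the Gne-heterozygous background Plekha7 measured 37.7 to 51.5 CPM in Gne+/- and 21.6 to 28.95 CPM in Gne+/- C3-/- libraries of run 1. In run 2 it measured 70.8 and 79.1 against 102 and 112 CPM.

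Apart from C3, the complement genes did not pass the threshold, which 0.167% of all genes tested passed. Of 21 genes for the initiators of the cascade and its convertases, 12 were tested, and C3 is the 1 that fell. The median log2 change of the 12 was -0.09, with 5 above 0, beside -0.0055 and 49.3% above 0 for all 17409 genes. The classical initiators are made in the retina mainly by microglia. Of these, C1qa stood at 3.75 to 9.74 CPM in wildtype and 3.67 to 10.8 CPM in C3-/- libraries of run 1 and at 5.45 to 5.77 against 2.58 to 4.76 CPM in run 2 (log2 change -0.09, SE 0.353), and C1qb (0.25, SE 0.731) and C1qc (-0.08, SE 0.414) did not pass either. C4b, which is cleaved after C1 binds, stood at 1.62 to 5.39 against 0.772 to 2.07 CPM in run 1 and 6.27 to 6.72 against 4.85 to 10.2 CPM in run 2 (-0.55, SE 0.63). C2, its partner in the convertase, had a change of -0.35 (SE 0.561), with 96.1% of its span covered by other genes. Cfp, properdin, which stabilises the alternative convertase, stood at 9.98 to 17.03 against 10.6 to 18.1 CPM in run 1 and 8.91 to 18.1 against 9.86 to 11.97 CPM in run 2 (0.06, SE 0.297). Cfb was under the filter, at 13 counts over all 27 libraries, and 99.4% of its span is covered by other genes, so its expression was not measured.

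Of 7 genes for the terminal pathway, which forms the membrane attack complex, 2 were tested and 0 passed. C8b had a change of -2.74 (SE 1.38, unadjusted p = 0.056), at 0 to 1.94 against 0 to 0.286 CPM in run 1 and 0.527 to 2.93 against 0 to 0.413 CPM in run 2. C8g had one of 3.24 (SE 1.23, unadjusted p = 0.0125, adjusted p = 0.756), at 0 to 0.17 against 0.613 to 3.38 CPM in run 1 and 0 to 0.659 against 0.11 to 0.86 CPM in run 2. Hc, which encodes C5, was under the filter and reached at most 1.47 and 1.12 CPM over both runs. Of 11 receptor genes, 7 were tested and 0 passed, with a median log2 change of 0.02. C3ar1, the receptor of C3a, stood at 0.154 to 3.15 against 1.15 to 8.33 CPM in run 1 and 0.79 to 7.75 against 1.17 to 2.71 CPM in run 2 (0.66, SE 0.713, adjusted p = 0.999). Cr2, a receptor of C3 fragments, stood at 1.95 to 4.90 against 2.37 to 4.43 CPM in run 1 and 0 to 2.37 against 1.66 to 3.13 CPM in run 2 (0.46, SE 0.563). For Itgam, a subunit of the phagocyte receptor for trimmed C3b, other genes cover 99.9% of the span and no library has a count, so its expression was not measured.

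Of 17 complement regulators, 15 were tested and 0 passed, with a median of -0.03 and 10 below 0. Clu, clusterin, stood at 316 to 972 against 567 to 671 CPM in run 1 and 316.5 to 326.5 against 294 to 405.5 CPM in run 2 (log2 change -0.05, SE 0.172). Vtn, vitronectin, had a change of -0.03 (SE 0.171). Cd59a, which blocks the membrane attack complex, stood at 104 to 245 against 100.8 to 216 CPM in run 1 and 84.2 to 122 against 87.1 to 106 CPM in run 2 (-0.08, SE 0.209). C4bp had a change of -3.59 (SE 1.39, unadjusted p = 0.0144, adjusted p = 0.81), at 0 to 1.02 against 0 to 0.0552 CPM in run 1 and 0 to 1.24 against 0 to 0.22 CPM in run 2.

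The gene lists for retinal neurons had no gene past the threshold, which 0.167% of all 17409 tested genes passed. At that share, a count of 0 in lists of this size is no result about a cell type. Rods, the most numerous retinal cells, had 0 of 23 tested phototransduction genes past it, with a median log2 change of 0.06 and 15 above 0. Cones had 0 of 15 (median 0.05), rod and ON bipolar cells 0 of 16 (0.04), cone and OFF bipolar cells 0 of 17 (0.03), horizontal cells 0 of 8 (0.0042), amacrine cells 0 of 20 (0.04) and ganglion cells 0 of 16 (0.09). The genes of photoreceptor and ribbon synapses had 0 of 24 and a median of 0.0099. Summed over the list, rod genes took 95030 to 110300 CPM in wildtype and 90480 to 103000 CPM in C3-/- libraries of run 1, and 45880 to 49590 against 48040 to 53420 CPM in run 2, so the groups overlap within each run. Members with the smallest p were Pde6c, above, and Pou4f1, a transcription factor of ganglion cells, with a change of 0.56 (SE 0.153, adjusted p = 0.255). Pou4f1 stood at 54.8 to 90.4 against 92.4 to 129.7 CPM in run 1 and 19.96 to 25.8 against 29.3 to 32.8 CPM in run 2, with no overlap in either run.

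Markers of bipolar cells, Müller glia, horizontal cells and ganglion cells were present in both groups, given here over both runs. The bipolar kinase Prkca measured 781 to 1531 CPM in wildtype and 1115 to 1648 CPM in C3-/- libraries, and the Müller glia enzyme Glul 1492 to 2804 and 1512 to 2411 CPM. The horizontal cell genes Onecut2 and Prox1, which other retinal neurons also express, stood at 29.1 to 124.5 and 34.1 to 141 CPM and at 116 to 235 and 111 to 289 CPM. Lhx1, also of horizontal cells, was low, at 0 to 1.81 and 0 to 1.21 CPM in run 1. In run 2 Lhx1 stood at 5.65 to 8.52 and 7.3 to 10.6 CPM. The ganglion cell gene Rbpms stood at 25.03 to 70.2 and 31.01 to 52.7 CPM. For Onecut1, of horizontal cells, and Nefl, of ganglion cells, other genes cover 98.98% and 100% of the span, so their low or absent counts do not measure expression.

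Glial and immune lists had no gene past the threshold either, again beside 0.167% of all genes tested. The list of Müller glia, the radial glia of the retina, had 0 of 19 (median -0.05), reactive gliosis 0 of 16 (0.10), astrocytes 0 of 9 (0.26), homeostatic microglia 0 of 15 (0.24), activated microglia and lysosome 0 of 23 (0.06), antigen presentation 0 of 14 (-0.10), the interferon response 0 of 23 (0.11) and cytokines and NF-kB 0 of 15 (-0.07). In homeostatic microglia the smallest p was that of Fcrls, a microglial receptor gene, with a change of 5.26 (SE 1.58, unadjusted p = 0.00218, adjusted p = 0.39), at 0 in 6 of 7 wildtype libraries and at 0 to 1.76 CPM in C3-/- libraries over both runs. Among cytokines it was that of Icam1, a leukocyte adhesion molecule, with 4.32 (SE 1.44, unadjusted p = 0.00518, adjusted p = 0.604), at 0 in 6 of 7 wildtype libraries and at 0 to 1.91 CPM in C3-/- libraries. Neither exceeded 2 CPM in any of these libraries, so both changes rest on few counts. Serpina3n, a protease inhibitor of reactive glia, stood at 8.61, 29, 49.4, 31.3 and 27.8 CPM in wildtype and 2.92, 2.45, 1.64 and 5.63 CPM in C3-/- libraries of run 1, and at 5.48 and 0.0439 against 4.92, 1.54 and 1.36 CPM in run 2. The groups were apart in run 1 and overlapped in run 2, and the change was -1.85 (SE 0.871, adjusted p = 0.999). Cd74, the invariant chain of class II antigen presentation, stood at 2.77 to 6.61 against 0 to 1.57 CPM in run 1 and 0.703 to 1.03 against 0 to 0.767 CPM in run 2 (-1.83, SE 0.818, adjusted p = 0.999). Mt2, a metallothionein, stood at 48.8 to 61.1 against 45.2 to 88.1 CPM in run 1 and 12.2 to 16.3 against 28.9 to 30.9 CPM in run 2 (0.63, SE 0.182, adjusted p = 0.316), with 82.8% of its span covered by other genes. Microglial markers were low: Aif1 reached at most 3.41 and 4.50 CPM, Tmem119 2.63 and 5.78 CPM and Csf1r 15.6 and 16.95 CPM in wildtype and C3-/- libraries over both runs.

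Of 20 tested immediate early genes, which respond to activity and stress within minutes, 17 had a change above 0 in C3-/- against wildtype mice, with a median of 0.31, and 0 passed the threshold. Of all 17409 tested genes, 8581 were above 0, with a median of -0.0055. The mean log2 level of the list had an SD of 0.41 between libraries of the same genotype and run, more than the median change. On the Gne-heterozygous background the median of the list was -0.14. Their summed level was 319.8 to 583 CPM in wildtype and 463 to 808 CPM in C3-/- libraries of run 1, and 328 to 349 against 335 to 397 CPM in run 2, with overlap in both. Fosb stood at 0.181 to 2.57 against 3.75 to 13.4 CPM in run 1 and 1.32 in both wildtype libraries against 1.53 to 4.12 CPM in run 2 (1.98, SE 0.681, adjusted p = 0.642). The heat shock and unfolded protein response had 0 of 23 (median 0.07), with Atf4 at a change of 0.34 (SE 0.108, adjusted p = 0.53). The circadian clock had 0 of 19 (-0.01). Its member with the smallest p was Arntl, the core activator of the clock, at 149 to 188 against 119.8 to 144 CPM in run 1 and 224 to 295 against 180.5 to 210.3 CPM in run 2 (-0.41, SE 0.0994, adjusted p = 0.099).

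Lists of metabolism and translation held 2 of the named genes. Cholesterol and lipid transport had 1 of 19 lower, Abca1, with a median of 0.0066, and cytosolic ribosomal proteins had 1 of 35 higher, Rps15a, with a median of 0.04. The ribosomal list also holds Rps13, whose counts are shared with its copies, and next to it by p Rpl5, with a change of 0.56 (SE 0.198, adjusted p = 0.693). Antioxidant defence had 0 of 20 (median -0.10), sialic acid metabolism 0 of 22 (-0.11), the nuclear respiratory chain 0 of 31 (0.04) and the mitochondrially encoded chain 0 of 8 (0.0047). Gne, intact in both groups, stood at 99.2 to 162 against 109.6 to 136 CPM in run 1 and 47 to 55.5 against 43 to 45.8 CPM in run 2, with a change of -0.15 (SE 0.128, adjusted p = 0.999).

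Markers of tissues next to the retina varied between libraries of both groups. The lens list had 0 of 14 past the threshold (median 0.21), with a summed level of 75.2 to 296 CPM in wildtype and 82.8 to 269 CPM in C3-/- libraries of run 1 and 49.0 to 70.8 against 49.7 to 89.3 CPM in run 2. Of its structural genes, Crygs reached 50.1 CPM in wildtype mouse 1 and 42.2 CPM in C3-/- mouse 1 and at most 3.83 CPM in the other 12 libraries, Mip reached at most 5.59 and 2.79 CPM, and Crybb1 at most 0.563 and 1.78 CPM. Pigment epithelium and melanocytes had 0 of 18 (0.12), at 1354 to 2140 against 1658 to 1987 CPM in run 1 and 643 to 673 against 629 to 753 CPM in run 2. Endothelium had 0 of 14 (0.15), fibroblasts and sclera 0 of 12 (0.02), and T cells, B cells and neutrophils 0 of 3 (-0.30). Pericytes and smooth muscle had 1 of 12 lower, Mylk (median -0.01), with a summed level of 303 to 579 CPM in wildtype and 355 to 435 CPM in C3-/- libraries of run 1 and 489 to 519 against 396 to 581 CPM in run 2. The other 11 members of that list did not pass. The erythrocyte list had 0 of 5 (-0.71), and its summed level ran from 35.8 to 244 CPM in wildtype and from 35.2 to 694 CPM in C3-/- libraries of run 1. In run 2 it was 85.6 to 101.6 against 13.98 to 80.3 CPM, with every C3-/- library below both wildtype libraries. In all, 32 of 36 lists had no gene past the threshold, which 0.167% of all genes tested passed. With so small a share, a list with 0 is no result about its cell type or tissue. A gene that did not pass is not thereby shown to be unchanged, since in simulated data only 35% of 2-fold changes passed. The other 4 lists had 1 gene each past the threshold, which were C3, Abca1, Rps15a and Mylk.

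**Figure D4:**
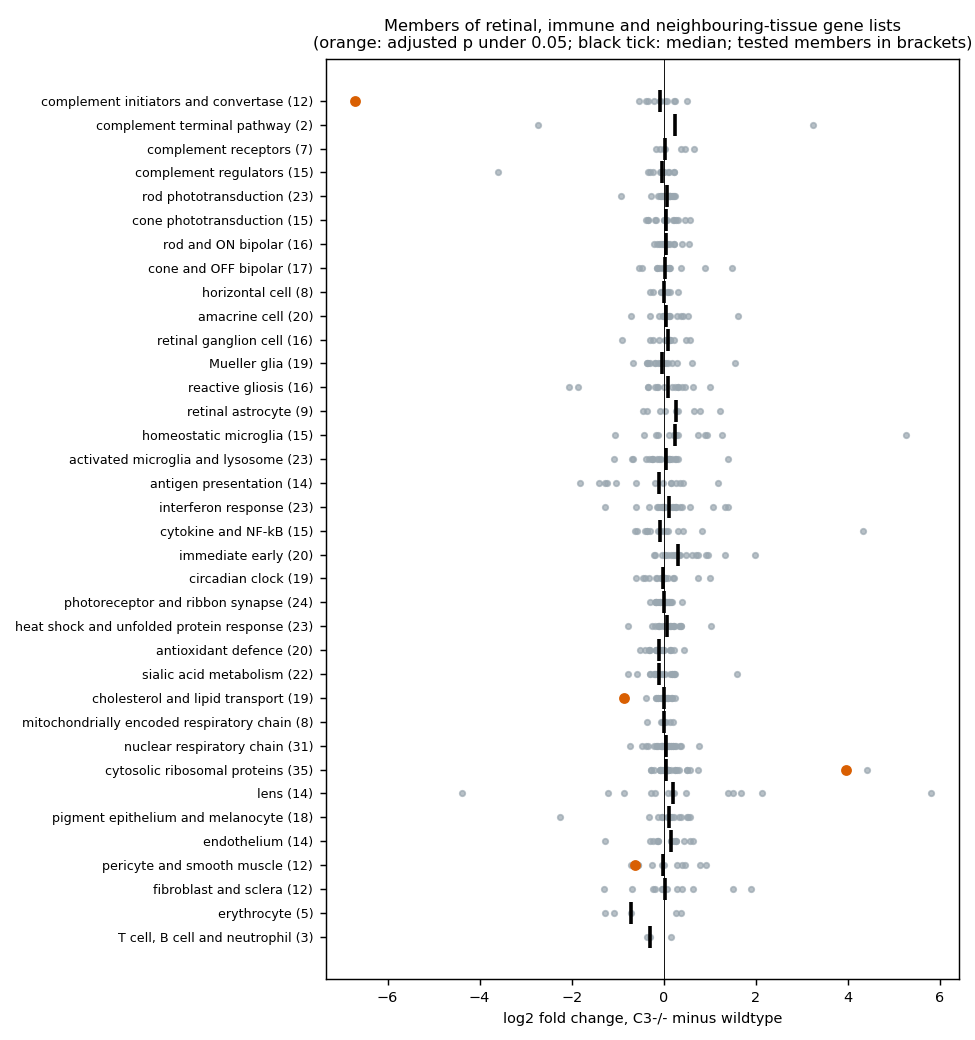
Log2 fold change, C3-/- minus wildtype, of the tested members of 36 gene lists (1 point per gene, number of tested members in brackets, black tick: list median). Orange points are genes with an adjusted p under 0.05, which are C3, Abca1, Rps15a and Mylk. The medians of most lists lie near 0, beside -0.0055 for all 17409 tested genes.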

How the data were processed

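The authors deposited raw counts per gene for 27 retinal libraries of QuantSeq 3′ mRNA sequencing. They used STAR 2.7.3a and featureCounts (Subread 2.0.0, builds GRCm38 and mm10), per the submitters' processing notes. The version written with the counts is 2.0.3, with Ensembl release 101, exon and gene features, no strand and no assignment of reads that overlap several genes, per the file headers. A gene covered by others therefore loses reads: 1256 of 1256 fully covered coding genes are at 0.

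The main test was edgeR 4.0.16 (R 4.3.3) on all 27 libraries, with filterByExpr (minimum count 10), TMM factors, robust quasi-likelihood fitting, and genotype and run as terms, which left 22 residual degrees of freedom. Benjamini-Hochberg adjustment used a threshold of 0.05. Alternatives were DESeq2 1.42.0, limma-voom (limma 3.58.1), other scaling, filters and terms, each run alone and each library left out. The procedure was tested on simulated data. Near-identical copies were sought with the last 200 bases of transcripts in GENCODE M21. Intervals and floors cover counting error only, because without molecular identifiers PCR duplicates count as reads.

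Named were C3 and Gne, all genes past the threshold, further genes past it with Gne loss, genes near C3 and list members, by smallest p, and class markers. Plekha7 and Gm45151 were named for their difference between runs after their values were seen. Members, lists and stretches were chosen with earlier results of these data known. Some genes that the rules take are not reported here.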

Additional observations from a re-analysis of the deposited data

Results flagged for a closer look

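Among the 7 C3-/- libraries, the total of mouse 8, 34.17 M counts, stood apart from the others, which had 13.7 to 18.5 M. C3 itself was highest in C3-/- mouse 9, at 3.598 CPM against 0 to 1.275 CPM in the other 6. Over 52 groups of 7 values examined in this way 2 stood apart, and chance alone gives about 1 in 20. Plekha7 had a C3-/- effect that differed between the runs by -1.7903 on the log2 scale, from a change of -1.15 in run 1 to one of 0.66 in run 2 (adjusted p = 0.0445, edgeR). For Gm45151, a provisional gene on chromosome 7, the effect differed by -7.4188 (adjusted p = 0.0445), with 0 CPM in both wildtype libraries of run 2, 0.553 to 1.79 CPM in the C3-/- libraries of that run, and 1.33 to 7.77 against 3.37 to 6.23 CPM in run 1. The role of sex and of run in both was not tested.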

How the results depend on the processing

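The number of genes past the threshold in C3-/- against wildtype, 29, became 63 with DESeq2, 69 with limma-voom, 91 with no filter on low counts and 13 with no run term. It was 21 to 34 with RLE factors, the 14 libraries alone, either run, the stricter filter (over 1 CPM in at least 6 libraries), the Y-linked level as a covariate or the replicate block, and 25 to 35 when single libraries were left out. Gne+/- C3-/- against Gne+/-, 33, became 87, 56, 306 and 13 under the first 4 of these, 20 with its 13 libraries alone and 11 in run 2 alone, and 20 to 40 without single libraries, the lowest of these being outside 1.5 times. The interaction rose from 0 to 30 with no filter and to 4 in run 2 alone. The log2 change of the targeted gene C3 was -5.68 in run 2 alone, not past the threshold there, and -7.57 to -6.45 without single libraries. For the replicate block, mouse number in place of run, same-numbered C3-/- and wildtype mice had correlations of -0.0309 to 0.0975, 2 of 6 matching best their own number, so the numbers were not taken as pairs. The block gave 23 genes, 21 of them among the 29, with an adjusted p = 0.0521 for Rps15a, and 27 genes, 23 of them among the 33, with Gne loss. Of the 28 named genes, 21 stayed past the threshold without any single library and 4 (Rps13-ps1, Heatr5a, E230029C05Rik and Slc4a8) also under every other alternative, and none reversed under any. With the 14 libraries alone, Gm2115, Pgap2, Mylk, Myg1, Abca1 and Slc25a41 were lost, and with the replicate block Rps15a, Pot1b, Gm16201, Pgap2, Mylk, Abca1 and Slc25a41. With the Y-linked level as a covariate 26 of the 29 stayed. Sp1 was lost without C3-/- mouse 2 or 5 (highest adjusted p = 0.0566). Gm16201 was lost without wildtype mouse 1, 2, 4 or 6 or C3-/- mouse 1 or 5 (0.094), and Pgap2 without wildtype mouse 1, 4 or 5 or C3-/- mouse 1, 2 or 6 (0.16). Mylk was lost without wildtype mouse 1 or 8 or C3-/- mouse 1, 5, 6 or 7 (0.094), and Myg1 without wildtype mouse 2, 4 or 7 or C3-/- mouse 1, 2 or 6 (0.177). Abca1 was lost without wildtype mouse 2, 5, 6 or 7 or C3-/- mouse 1, 5, 6, 7, 8 or 9 (0.115), and Slc25a41 without wildtype mouse 1, 2, 5, 6, 7 or 8 or C3-/- mouse 1, 6, 8 or 9 (0.157). The cause of these changes was not tested.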
